A study of Mus musculus with 6 samples.

Results

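Matrix metalloproteinases (MMPs) and their tissue inhibitors (TIMPs) are described here in primary Schwann cells (SCs) with and without Plexin-B1. The 10 genes are *Mmp2*, *Mmp3*, *Mmp9*, *Mmp14*, *Mmp15*, *Mmp17*, *Mmp19*, *Timp1*, *Timp2*, and *Timp3*. They are a part of these gene families, taken by name with earlier results of these data known. All 10 were found among the 55401 genes of the count table. The SCs were cultured out of adult dorsal root ganglia, 3 cultures from WT and 3 from *Plxnb1*-/- (PB1 -/-) mice, in medium with forskolin, neuregulin, serum, and ascorbic acid, after fibroblasts had been depleted with an anti-Thy1 antibody. The knockout allele carries a transmembrane-lacZ-neo gene trap in *Plxnb1*, all lines are on a C57BL/6 background, and the study's methods state that heterozygous littermates served as controls alongside WT littermates, whereas the sample labels give WT for the control libraries. The sex and exact age of the mice, and whether each culture came from a separate animal, are not given in the sources used here, so that p-values measure the spread between these cultures only.

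MMPs are zinc-dependent endopeptidases that cut proteins of the extracellular matrix (ECM) and the cell surface. They are made as inactive proenzymes, either secreted or anchored in the membrane, and TIMPs block them by occupying the active site. In peripheral nerve they are known for the remodeling of basement membrane and the release of growth factors after injury, when SCs and invading cells migrate through the nerve bridge. Several MMP genes are textbook targets of the AP-1 (Fos and Jun) and ETS transcription factors.

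To show the regulatory DNA of the members, the promoter windows of 3 genes are printed, those whose WT and *Plxnb1*-/- cultures did not overlap in expression and that have a RefSeq entry in the table used. The table holds 6 of the 10 members (*Mmp3*, *Mmp14*, *Mmp15*, *Timp1*, *Timp2*, and *Timp3*). Each window runs 300 bases 5′ to 3′ on the plus strand of GRCm38.p6, with 250 bases before the start of the gene. Capitals mark the AP-1 motif TGANTCA, the ETS motif AGGAAG, and the TATA box TATAAA, searched on both strands.
Mmp3 (chr9:7445572-7445871): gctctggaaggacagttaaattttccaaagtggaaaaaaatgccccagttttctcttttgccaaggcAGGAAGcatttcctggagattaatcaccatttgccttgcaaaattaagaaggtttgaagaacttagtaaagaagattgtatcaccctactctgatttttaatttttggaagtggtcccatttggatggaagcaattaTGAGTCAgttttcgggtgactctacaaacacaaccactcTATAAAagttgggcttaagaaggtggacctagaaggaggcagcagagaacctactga
Mmp14 (chr14:54431348-54431647): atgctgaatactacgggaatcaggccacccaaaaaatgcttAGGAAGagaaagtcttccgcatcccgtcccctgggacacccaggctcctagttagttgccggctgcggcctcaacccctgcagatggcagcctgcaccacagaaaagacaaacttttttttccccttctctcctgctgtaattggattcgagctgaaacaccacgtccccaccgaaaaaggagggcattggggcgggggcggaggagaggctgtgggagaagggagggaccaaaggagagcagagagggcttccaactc
Timp1 (chrX:20869916-20870215): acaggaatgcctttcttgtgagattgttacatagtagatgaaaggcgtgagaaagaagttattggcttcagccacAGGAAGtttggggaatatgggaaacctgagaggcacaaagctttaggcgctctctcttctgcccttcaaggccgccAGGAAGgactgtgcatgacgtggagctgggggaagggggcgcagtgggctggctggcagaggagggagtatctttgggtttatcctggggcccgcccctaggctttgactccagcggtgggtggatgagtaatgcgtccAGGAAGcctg
The window of *Mmp3* held AP-1 at position 205, ETS at position 68, and a TATA box at position 244. *Timp1* held the ETS motif at positions 76, 152, and 291, and *Mmp14* held it at position 42. Of all 32851 windows in the table, 7.81% held AP-1, 35.4% the ETS motif, and 13.6% the TATA box. Among the 6 members with a window, *Mmp3* was the one with AP-1 and the one with a TATA box. These matches describe letters only, and binding was not measured.

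Total counts lay between 59252048 and 77280964 per culture. CPM is the count scaled to the library total, corrected by TMM factors in all values below. Before that correction, 3 counts correspond to between 0.0388 and 0.0506 CPM, a floor that covers counting error only. Values are listed below in the order of the replicate numbers. *Plxnb1* measured 61.8, 45.4, and 96.4 CPM in the WT and 13.1, 16.6, and 18.6 CPM in the knockout cultures. Markers of SCs differed widely in level, with *Sox10* above 400 CPM in every culture but *S100b* at means of 7.56 CPM in the WT and 7.65 CPM in the knockout cultures. The sum over 10 SC markers was 2460 to 2907 CPM in the WT and 2939 to 3307 CPM in the knockout cultures. *Thy1*, the target of the fibroblast depletion, still stood at means of 524 CPM in the WT and 401 CPM in the knockout cultures. WT replicate 2 stood apart, with the lowest SC sum (2460 CPM) and the highest sum over 10 fibroblast markers (2067 CPM, against 1488 and 1686 CPM in the other WT cultures and 1464 to 1586 CPM in the knockout cultures). The sum over 8 mural cell markers was 1520 to 2020 CPM in the WT and 1403 to 1486 CPM in the knockout cultures, and that over 12 macrophage markers was 51.9 to 59.2 CPM in the WT and 61.2 to 71.9 CPM in the knockout cultures. That over 8 markers of neurons and satellite glia was 841.6 to 974 CPM in the WT and 1002 to 1038 CPM in the knockout cultures. Higher in every knockout than in every WT culture were 4 of 10 SC markers (among them *Cdh19*, *Ngfr*, and *Gfap*), 6 of 12 macrophage markers, and 3 of 8 markers of neurons and satellite glia, against 9.29% of all genes. Lower in every knockout culture were 2 of 8 mural markers, *Acta2* and *Des*, against 10.4% of all genes. The log2 fold change was above 0 for 9 of 10 SC markers (median 0.19), 12 of 12 macrophage markers (0.27), and 8 of 8 markers of neurons and satellite glia (0.26). The mural list did not share a sign, with 5 of its 8 log2 fold changes above 0 and a median of 0.08. DESeq2 called *Acta2* as lower, against 0.811% of all genes, and the macrophage genes *C1qb* and *Cx3cr1* as higher, against 0.690%. edgeR called 0 of the genes in these lists, against 0.0358% of all genes. The part of these markers in the values below was not tested. In bulk RNA, fewer cells of a type and less RNA per cell cannot be told apart.

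**Figure D1:**
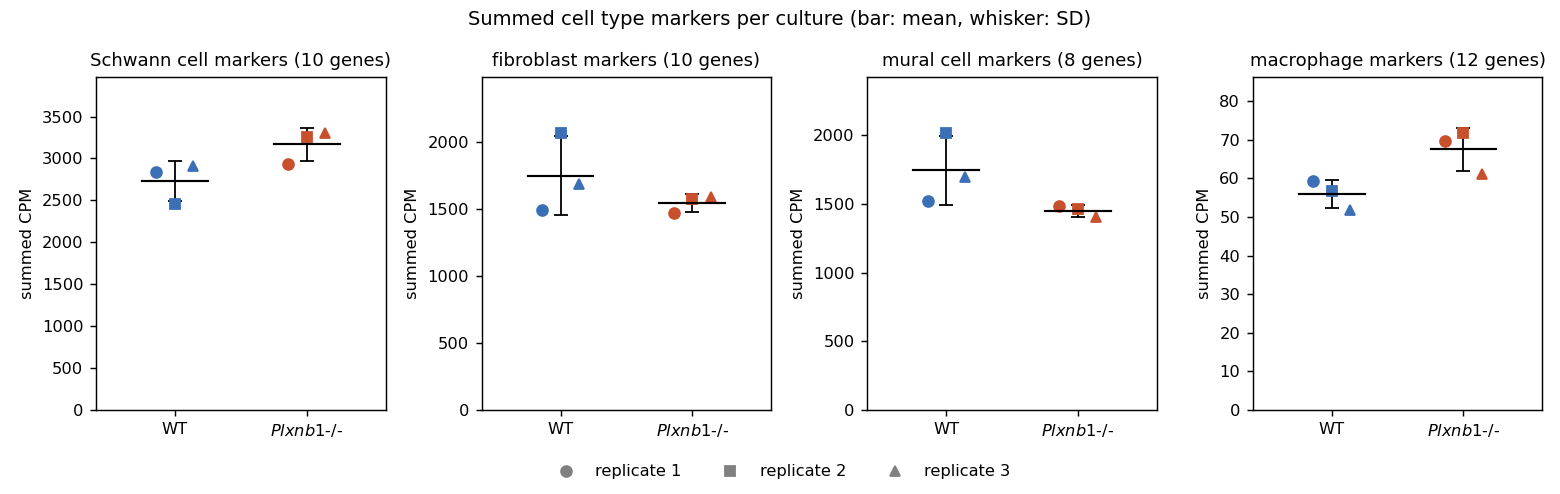
Summed CPM of cell type markers in each culture (points, shaped by replicate number), with the mean (bar) and SD (whisker) of 3 cultures per genotype. WT replicate 2 has the lowest SC sum and the highest fibroblast and mural sums, and the SC, mural, and macrophage sums do not overlap between genotypes.

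The first question was how much RNA of each protease and inhibitor these cultures held. Fibroblast and mural marker RNA was present in every culture, so these bulk levels cannot be assigned to SCs alone. Below, SCs stands for the cultures. To compare genes, CPM was divided by the length of the gene's exons in kilobases (kb). In WT SCs the order of mean levels was *Timp1* (685 ± 50.5 CPM per kb, SD, n = 3), *Timp2* (172 ± 2.15), *Mmp14* (164 ± 4.99), *Timp3* (97.2 ± 2.12), *Mmp2* (63.2 ± 8.07), *Mmp15* (51.5 ± 7.61), *Mmp17* (49.99 ± 3.22), *Mmp19* (20.4 ± 1.27), *Mmp3* (7.93 ± 1.18), and *Mmp9* (2.16 ± 0.739). *Timp1* therefore stood 3.98-fold above the next gene, and *Mmp3* stood 3.67-fold above *Mmp9*. The ranges of *Mmp2* and *Mmp15* overlapped in WT cultures, as did those of *Mmp15* and *Mmp17*, so these neighbors in the order are not separated by their spread. All other neighbors were apart in the WT cultures, although *Timp2* and *Mmp14* differed by only 1.05-fold in their means. The spread between cultures does not cover errors that differ between genes, such as in the exon length or the mapping of reads. In *Plxnb1*-/- SCs the order of the means was the same, and only the ranges of *Mmp15* and *Mmp17* overlapped.

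**Figure D2:**
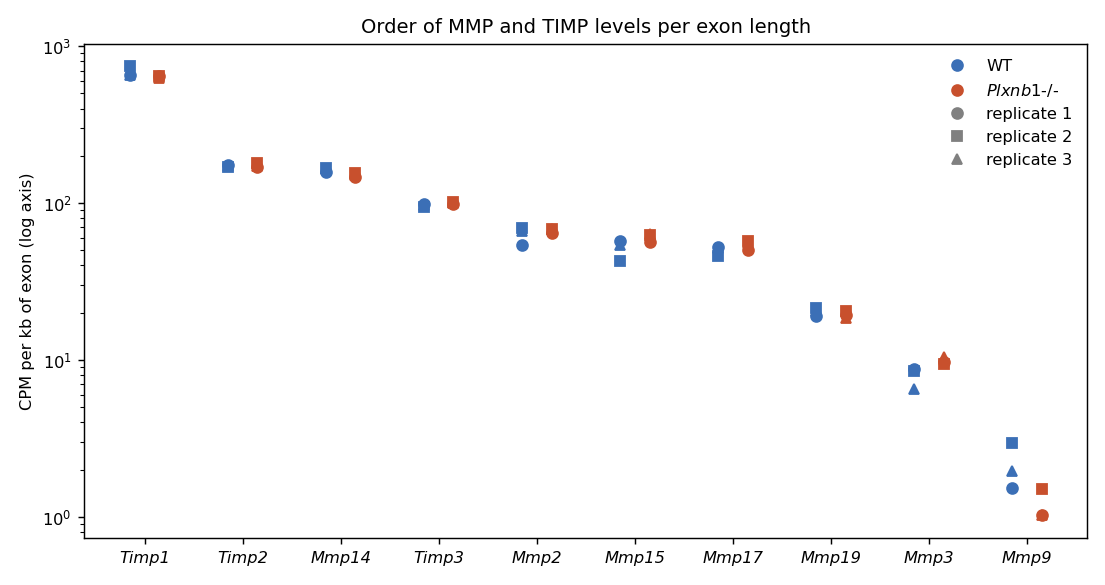
Level of each member per kb of exon on a log axis, ordered by the WT mean, with 3 WT and 3 *Plxnb1*-/- cultures as points. *Timp1* is highest and *Mmp9* lowest in every culture, and the order of the means is the same in both genotypes.

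Per kb of exon, the RNA of the 3 TIMPs outweighed that of the 7 member MMPs in every culture. Summed per kb, the 3 TIMPs reached 955 ± 47.5 CPM per kb in WT and 914 ± 17.2 CPM per kb in *Plxnb1*-/- SCs, and the 7 MMPs reached 360 ± 7.71 and 364 ± 14.7 CPM per kb (SD, n = 3). The ratio of the TIMP sum to the MMP sum was 2.66, 2.81, and 2.51 in the WT and 2.63, 2.48, and 2.43 in the knockout cultures, with overlap between genotypes. *Timp1* made up 71.7% ± 1.69 of the TIMP sum in WT and 70.0% ± 0.510 in *Plxnb1*-/- SCs. *Mmp14* made up 45.7% ± 0.971 of the MMP sum in WT and 41.6% ± 0.496 in *Plxnb1*-/- SCs, and its share in each *Plxnb1*-/- culture (42.0%, 41.6%, and 41.0%) was under its share in each WT culture (45.2%, 46.8%, and 45.1%). These sums and shares are descriptions and were not tested. They leave out the MMPs that are not members, such as *Mmp28* and *Mmp11* (means of 67.5 and 49.5 CPM in WT). They also depend on the exon lengths, 888 bases for *Timp1* and 5960 for *Mmp14*. In CPM alone, the WT mean of *Mmp14* (979) was above that of *Timp1* (608).

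The second question was whether the loss of Plexin-B1 goes with other MMP or TIMP levels. All 10 members passed the filter on low counts. A gene was called when its adjusted p was below 0.05 and its log2 fold change exceeded 0.25 in size. The quasi-likelihood test of edgeR called 0 of the 10, where it called 0.0358% of the 22318 genes tested. At an unadjusted p below 0.05 there were 4 members (*Mmp3*, *Mmp9*, *Mmp14*, and *Mmp15*), against 13.7% of all tested genes. DESeq2, the tool of the study, called 1 member, *Mmp9*, as lower in *Plxnb1*-/- SCs, where it called 0.811% of all genes lower and 1.50% in either direction. The cultures of the genotypes did not overlap for 1 member with higher values in *Plxnb1*-/- SCs (*Mmp3*, background 9.29% of all genes) and for 3 members with lower values (*Mmp9*, *Mmp14*, and *Timp1*, background 10.4%). The median log2 fold change was 0.03 over the 10 members, with 6 above and 4 below 0, and 0.00496 over all tested genes.

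**Figure D3:**
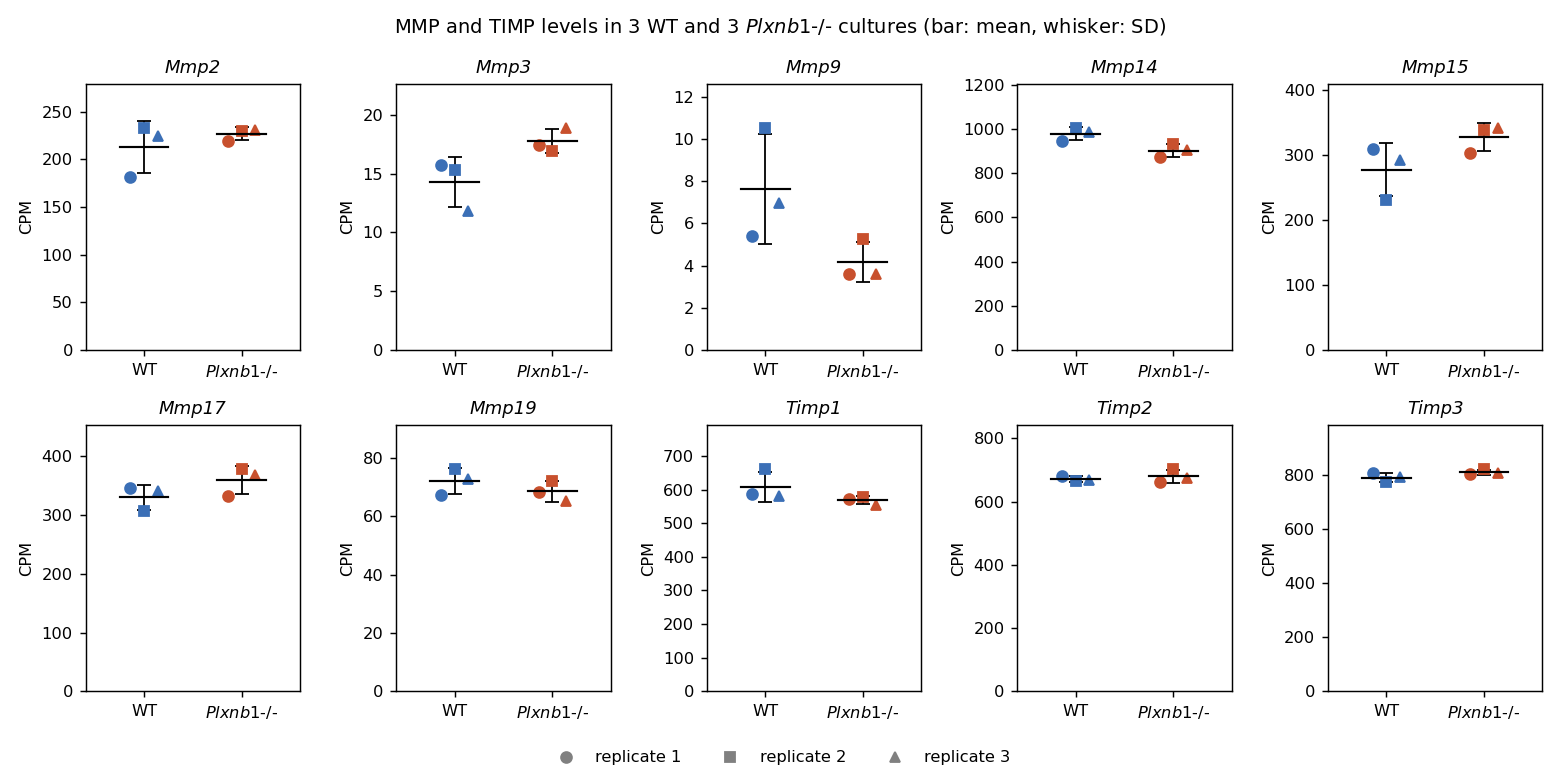
CPM of the 10 members in each culture, with points shaped by replicate number, the mean as a bar, the SD over 3 cultures as a whisker, and axes that start at 0. *Mmp3* is higher, and *Mmp9*, *Mmp14*, and *Timp1* are lower, in every *Plxnb1*-/- culture than in every WT culture.

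*Mmp9* (chromosome 2, 164940780 to 164955850, plus strand, GRCm38) encodes a secreted gelatinase that cuts type IV collagen and gelatin. It measured 5.42, 10.5, and 6.98 CPM in the WT and 3.62, 5.28, and 3.61 CPM in the knockout cultures. These levels rest on 347, 616, and 494 counts in WT and 283, 383, and 250 counts in *Plxnb1*-/- cultures. The knockout cultures lay under all WT cultures, but *Plxnb1*-/- replicate 2 and WT replicate 1 lay close together, and WT replicate 2 was well above the rest. The log2 fold change was −0.87 (SE 0.24, 95% interval −1.42 to −0.33, adjusted p = 0.273 from edgeR), the largest of the 10 members in size. DESeq2 gave −0.87 with an adjusted p of 0.00955. Without WT replicate 2 the log2 fold change was −0.57 in edgeR, and DESeq2's adjusted p was 0.14. DESeq2's call was also lost without *Plxnb1*-/- replicate 1 (adjusted p = 0.107) and without *Plxnb1*-/- replicate 3 (adjusted p = 0.683).

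*Mmp9* and the summed fibroblast and mural markers shared their order among the WT cultures, with replicate 2 highest and replicate 1 lowest, but not among the knockout cultures, where the fibroblast sum was 1464, 1572, and 1586 CPM and the mural sum 1486, 1466, and 1403 CPM. Of the 10 fibroblast markers, 7 had log2 fold changes below 0 and 3 above 0, with a median of −0.10. The genotypes lay apart for 3 of them, *Mfap5* (log2 fold change −0.62), *Thy1* (−0.39), and *Pdgfra* (−0.33), all lower in the knockout cultures, against the 10.4% of all genes given above. Without WT replicate 2 these values were −0.37, −0.19, and −0.14. edgeR and DESeq2 called 0 of the 10, with 3 at an unadjusted p below 0.05 in edgeR. The sum over 8 neutrophil markers was 0.531 to 0.861 CPM in the WT and 0.869 to 1.104 CPM in the knockout cultures. Of these markers 4 passed the filter, with 3 log2 fold changes above 0 and 1 below. *Ly6g* and *Camp*, at no more than 26 counts, were higher in every knockout culture than in every WT culture (log2 fold changes 1.97 and 1.32), against 9.29% of all genes. *Mpo* went the other way (−1.13), at 4, 2, and 14 counts in the WT and 4, 4, and 2 counts in the knockout cultures, with overlap. *Ltf* had 21 to 42 counts, and *Elane* and *Cxcr2* had at most 3 counts in any culture. The part of these cells in the *Mmp9* values was not tested.

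*Mmp2* (chromosome 8, 92827291 to 92853420, plus strand) encodes the other gelatinase, whose proenzyme is activated at the cell surface by the *Mmp14* product with the help of TIMP2. It measured 182, 233, and 224 CPM in the WT and 219, 230.3, and 231 CPM in the knockout cultures. The groups overlapped, with WT replicate 1 below all other cultures and WT replicate 2 above them. Its log2 fold change was 0.09 (SE 0.08, 95% interval −0.10 to 0.28, adjusted p = 0.668 from edgeR), and it turned to −0.01 without WT replicate 1.

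*Mmp3* (chromosome 9, 7445822 to 7455975, plus strand) encodes stromelysin, which cuts proteoglycans, laminin, and fibronectin and can activate other proenzymes. It measured 15.7, 15.3, and 11.8 CPM in the WT and 17.5, 17.0, and 18.9 CPM in the knockout cultures. All *Plxnb1*-/- cultures were higher than all WT cultures, and WT replicate 3 was the lowest. The log2 fold change was 0.32 (SE 0.10, 95% interval 0.08 to 0.55, adjusted p = 0.293 from edgeR), and DESeq2's adjusted p was 0.107. Without WT replicate 3 the log2 fold change was 0.20. Without WT replicate 1, DESeq2 called *Mmp3* and *Mmp15* in addition to *Mmp9*.

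*Mmp19* (chromosome 10, 128790910 to 128800824, plus strand) encodes a secreted MMP with a broad range of basement membrane substrates. It lay between 67.3 and 76.2 CPM in the WT and between 65.2 and 72.2 CPM in the knockout cultures, which overlapped. Its log2 fold change was −0.07 (95% interval −0.20 to 0.06, adjusted p = 0.609 from edgeR), and it was −0.03 without WT replicate 2 and −0.12 without WT replicate 1. It was −0.11 without *Plxnb1*-/- replicate 2 and −0.04 without *Plxnb1*-/- replicate 3. Its exons overlap those of *Tmem198b* and Gm47093 on the opposite strand over 789 and 212 bases, and the strand setting of the counting is not given in the sources used here.

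The 3 membrane-anchored members did not share a direction. *Mmp14* (chromosome 14, 54431612 to 54445364, plus strand) encodes the main membrane-type collagenase of migrating cells, and it measured 946, 1004, and 987 CPM in the WT and 871, 932, and 903 CPM in the knockout cultures. All *Plxnb1*-/- cultures were lower than all WT cultures, by a log2 fold change of −0.12 (SE 0.05, 95% interval −0.22 to −0.02, adjusted p = 0.322 from edgeR), or −7.90%, against −45.3% for *Mmp9*.

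*Mmp15* (chromosome 8, 95352268 to 95375080, plus strand), a transmembrane MMP, measured 309, 231, and 292 CPM in the WT and 303, 338, and 342 CPM in the knockout cultures. The groups overlapped, since WT replicate 1 lay above *Plxnb1*-/- replicate 1, and WT replicate 2 was the lowest culture. The log2 fold change was 0.24 (SE 0.10, 95% interval 0.01 to 0.46, adjusted p = 0.345 from edgeR), and it was 0.13 without WT replicate 2. *Mmp17* (chromosome 5, 129584169 to 129611099, plus strand), which is tethered by a glycolipid anchor, lay between 306 and 345 CPM in the WT and between 333 and 378 CPM in the knockout cultures. It had a log2 fold change of 0.12 (SE 0.06, 95% interval −0.02 to 0.27, adjusted p = 0.432 from edgeR), and it was 0.07 without WT replicate 2, again the lowest culture. In WT replicate 2, the culture with the fewest SC marker transcripts, *Mmp15*, *Mmp17*, and *Timp3* were thus at their lowest and *Mmp2*, *Mmp9*, *Mmp14*, *Mmp19*, and *Timp1* at their highest.

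The 3 inhibitors had log2 fold changes between −0.10 and 0.04. *Timp1* (chromosome X, 20870166 to 20874735, plus strand), the secreted inhibitor known to bind the *Mmp9* proenzyme, measured 586, 660.1, and 579.7 CPM in the WT and 573, 577, and 555 CPM in the knockout cultures. All *Plxnb1*-/- cultures were lower than all WT cultures, with WT replicate 3 close to the highest of them. Its log2 fold change was −0.10 (SE 0.06, 95% interval −0.23 to 0.03, adjusted p = 0.472 from edgeR), and it was −0.03 without WT replicate 2. The gene lies within the span of *Syn1* on the opposite strand, with no shared exon bases.

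*Timp2* (chromosome 11, 118301069 to 118355740, minus strand), which also serves the activation of the *Mmp2* product, measured 681, 665, and 668 CPM in the WT and 663, 702, and 675 CPM in the knockout cultures. Its log2 fold change was 0.02 (SE 0.04, 95% interval −0.07 to 0.11, adjusted p = 0.878 from edgeR), and it was −0.004 without *Plxnb1*-/- replicate 2. *Timp3* (chromosome 10, 86300372 to 86349506, plus strand), the inhibitor that is held in the ECM and also blocks ADAM proteases, measured 809, 774, and 793 CPM in the WT and 804, 823, and 809.6 CPM in the knockout cultures. Its log2 fold change was 0.04 (SE 0.04, 95% interval −0.05 to 0.13, adjusted p = 0.727 from edgeR), or 0.02 without WT replicate 2, and its exons overlap 1733 bases of *Syn3* on the opposite strand. Both genes overlapped between genotypes, and both intervals leave out a change as large as the cutoff of 0.25.

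Pairs of members that are known to act together were also set against each other. Per kb, *Timp2* stood at 1.1, 1.01, and 1.03 times *Mmp14* in the WT and at 1.16, 1.15, and 1.14 times in the knockout cultures, without overlap. *Mmp14* stood at 2.94, 2.44, and 2.49 times *Mmp2* in WT and at 2.25, 2.29, and 2.21 times in *Plxnb1*-/- cultures, also without overlap. *Timp2* stood at 3.24, 2.47, and 2.58 times *Mmp2* in the WT and at 2.62, 2.64, and 2.53 times in the knockout cultures, with overlap. *Timp1* stood at 337 ± 90.4 times *Mmp9* in the WT and at 560.0 ± 108 times in the knockout cultures (SD, n = 3). For this last pair WT replicate 1 (430.4) and *Plxnb1*-/- replicate 2 (435.6) lay close together. These ratios share their terms with the values above and add no separate test.

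**Figure D4:**
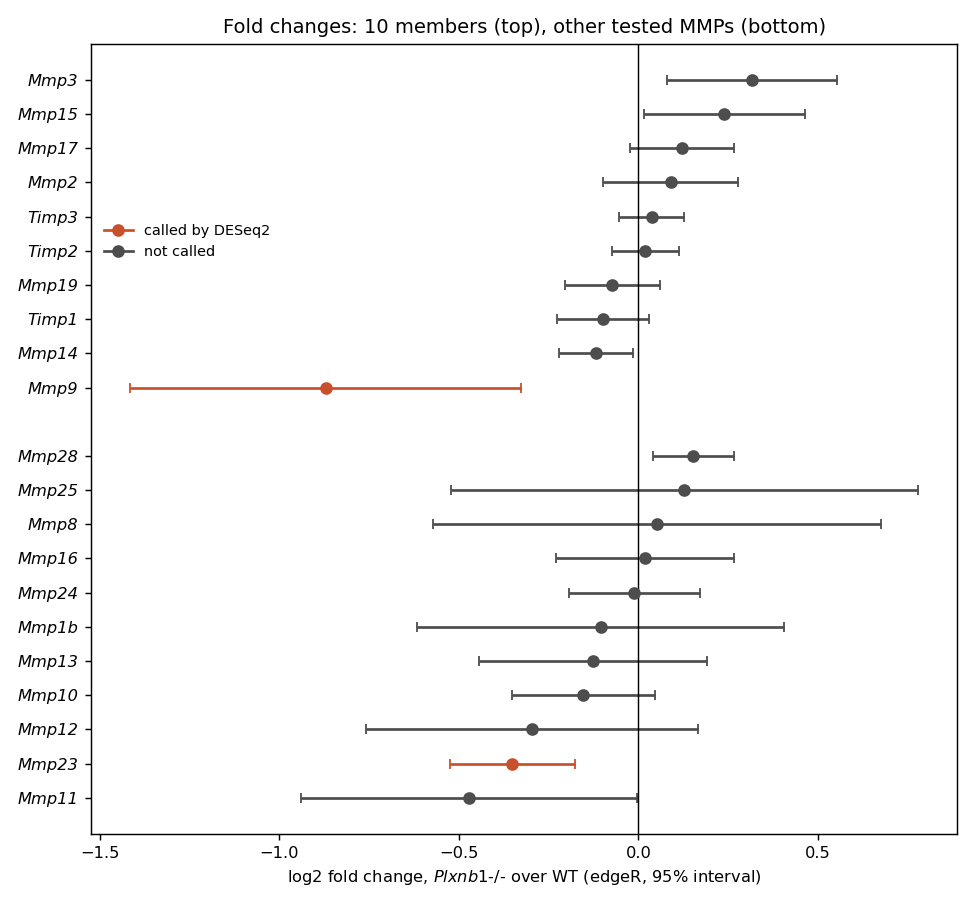
edgeR's log2 fold changes (*Plxnb1*-/- over WT) with 95% intervals for the 10 members and the 11 other MMPs that passed the filter on low counts, with the genes called by DESeq2 in color. *Mmp9* has the fold change farthest from 0, and *Timp2* and *Timp3* have the narrowest intervals.

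The rest of the MMP family was read from a list of 16 other MMPs and *Timp4*, of which 11 passed the filter. *Mmp7* and *Mmp20* had 0 counts in all 6 cultures, and *Timp4*, *Mmp21*, *Mmp27*, and *Mmp1a* had at most 8 counts in any culture. edgeR called 0 of the 11 (3 at an unadjusted p below 0.05, against 13.7% of all genes), and DESeq2 called 1, *Mmp23*, as lower, against 0.811% of all genes. *Mmp23*, which encodes a membrane-bound MMP without the hemopexin domain, measured 15.5, 17.2, and 14.6 CPM in the WT and 11.6, 12.5, and 12.9 CPM in the knockout cultures. All *Plxnb1*-/- cultures were lower than all WT cultures (log2 fold change −0.35, SE 0.08, adjusted p = 0.266 from edgeR and 0.0133 from DESeq2). *Mmp28*, which encodes epilysin, measured 67.8, 64.5, and 70.2 CPM in the WT and 72.4, 78.5, and 74.3 CPM in the knockout cultures, all of them higher (log2 fold change 0.15, SE 0.05, adjusted p = 0.293 from edgeR). *Mmp11*, or stromelysin 3, measured 34.5, 68.4, and 45.5 CPM in the WT and 33.4, 40.3, and 33.3 CPM in the knockout cultures, which overlapped (log2 fold change −0.47, adjusted p = 0.363 from edgeR), and its log2 fold change was −0.16 without WT replicate 2. *Mmp1a* and *Mmp1b* are closely related neighbors, so that the assignment of reads between them is uncertain. *Mmp8*, the neutrophil collagenase, stood at 0.372 ± 0.0855 CPM in the WT and 0.385 ± 0.0690 CPM in the knockout SCs.

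Genes that activate, hold, or restrain MMPs formed a list of 22, of which 20 passed the filter. *Plg*, the plasminogen gene, and *Lcn2*, whose product forms a complex with the *Mmp9* protein, were not tested, with at most 8 counts in any culture. edgeR called 0 of the 20 (10 at an unadjusted p below 0.05, of which 8 were lower, against 13.7% of all genes), and DESeq2 called 4, *Spock3*, *Plaur*, *Plau*, and *Thbs2*, all lower, where 0.811% of all genes were called lower. *Plau*, the urokinase whose product plasmin activates several proMMPs, measured 93.4, 122, and 94.3 CPM in the WT and 78.2, 84.2, and 63.3 CPM in the knockout cultures (log2 fold change −0.45, adjusted p = 0.273 from edgeR and 0.0147 from DESeq2), and its log2 fold change was −0.315 without WT replicate 2. Its receptor *Plaur* measured 59.4, 65.4, and 63.1 CPM in the WT and 53.1, 52.6, and 46.4 CPM in the knockout cultures (log2 fold change −0.30, adjusted p = 0.255 from edgeR and 0.00702 from DESeq2). For both genes, the knockout cultures lay under all WT cultures. *Thbs2*, which encodes a thrombospondin, measured 2831, 3567, and 2873 CPM in the WT and 2545, 2559, and 2354 CPM in the knockout cultures (log2 fold change −0.31, adjusted p = 0.273 from edgeR and 0.0296 from DESeq2), and its log2 fold change was −0.19 without WT replicate 2. *Spock3*, a testican, had the largest difference of the list, −1.04 (adjusted p = 0.0701 from edgeR and 7.7e-08 from DESeq2), at 4.69 ± 0.712 CPM in the WT and 2.28 ± 0.127 CPM in the knockout SCs.

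The 2 genes of this list with higher values at an unadjusted p below 0.05 both encode inhibitors, but not every inhibitor of the list was higher. *Tfpi2*, which also encodes a protease inhibitor, measured 36.3, 51.7, and 39.9 CPM in the WT and 36.0, 31.0, and 22.0 CPM in the knockout cultures, all of them lower. Its log2 fold change was −0.52 (adjusted p = 0.295 from edgeR and 0.277 from DESeq2), and −0.36 without WT replicate 2. *Reck*, a membrane-anchored inhibitor of MMPs, measured 22.7, 23.4, and 24.8 CPM in the WT and 25.8, 28.02, and 28.1 CPM in the knockout cultures (log2 fold change 0.21, SE 0.06, adjusted p = 0.273 from edgeR and 0.104 from DESeq2). *A2m*, the broad protease inhibitor of plasma, stood at 0.885 ± 0.327 CPM in the WT and 1.55 ± 0.470 CPM in the knockout SCs (log2 fold change 0.79, adjusted p = 0.319 from edgeR), and its log2 fold change was 0.52 without *Plxnb1*-/- replicate 3. Both had every *Plxnb1*-/- culture above every WT culture, and neither was called by edgeR or DESeq2. *Furin*, the convertase that activates membrane-type MMPs, stood at 405 ± 13.7 CPM in the WT and 379 ± 7.34 CPM in the knockout SCs (log2 fold change −0.10, adjusted p = 0.364 from edgeR). *Bsg*, which encodes the MMP inducer basigin, *Cd44*, a docking site for the *Mmp9* protein, and *Lrp1*, the receptor that clears MMPs and TIMPs, had log2 fold changes of −0.03, −0.03, and −0.02 (adjusted p of 0.819, 0.831, and 0.944 from edgeR), with overlap between genotypes for each.

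**Figure D5:**
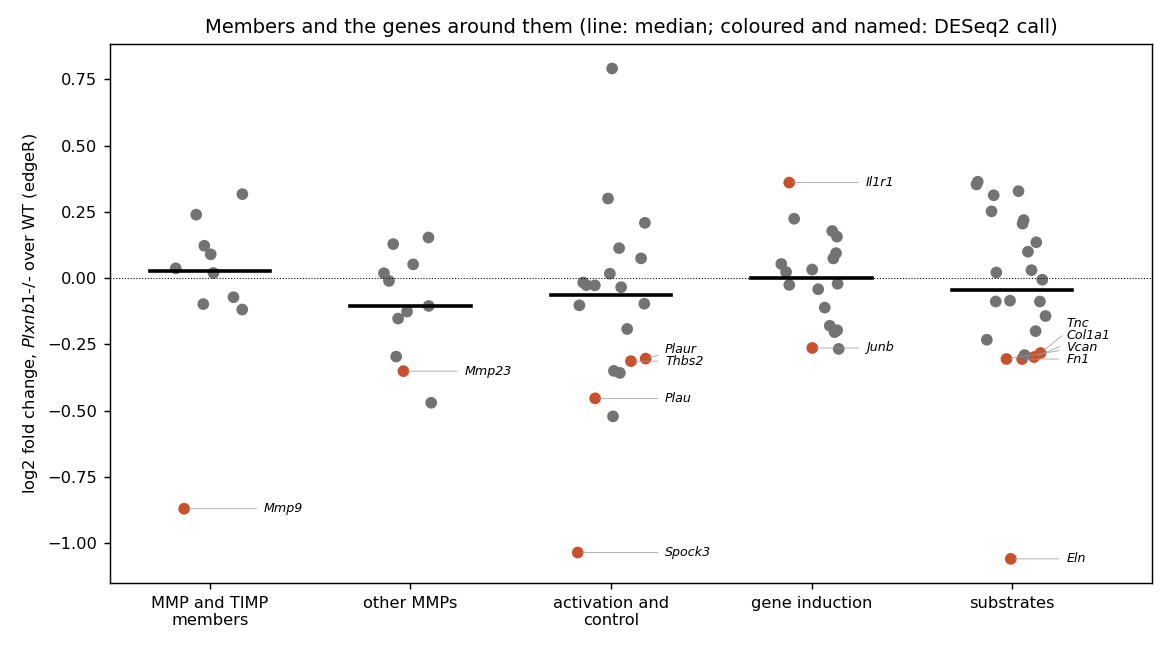
edgeR's log2 fold changes (*Plxnb1*-/- over WT) of the tested members and of the tested genes in 4 related lists, 1 point per gene, with the median of each list as a line and DESeq2 calls colored and named. Medians lie between −0.11 and 0.03, and 12 of the 13 colored genes are below 0. Of all tested genes, DESeq2 called 0.811% lower and 0.690% higher. The lists were chosen with earlier results of these data known.

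Transcription factors and receptors that act on MMP genes formed a list of 18, all tested. edgeR called 0 (7 at an unadjusted p below 0.05, 3 higher and 4 lower, against 13.7% of all genes), and DESeq2 called *Junb* as lower and *Il1r1* as higher, where it called 0.811% of all genes lower and 0.690% higher. *Junb* measured 126, 146, and 136 CPM in the WT and 114, 118, and 108 CPM in the knockout cultures (log2 fold change −0.26, adjusted p = 0.266 from edgeR and 0.0168 from DESeq2). *Jund* measured 69.2, 67.1, and 71.1 CPM in the WT and 61.2, 61.2, and 60.7 CPM in the knockout cultures (log2 fold change −0.18, adjusted p = 0.266 from edgeR). *Fos*, in contrast, measured 74.3, 73.5, and 78.2 CPM in the WT and 78.5, 85.0, and 88.5 CPM in the knockout cultures (log2 fold change 0.16, adjusted p = 0.295 from edgeR). These 3 AP-1 subunits did not share a sign, and *Jun*, at 386 ± 21.8 CPM in WT, overlapped between genotypes (log2 fold change 0.03, adjusted p = 0.854 from edgeR). Of the ETS factors, *Etv5* stood at 0.18 (adjusted p = 0.273 from edgeR) and *Ets2* at −0.20 (adjusted p = 0.332 from edgeR). The receptor *Tgfbr2* stood at −0.27 (adjusted p = 0.295 from edgeR), and without WT replicate 2 the values of *Tgfbr2* and *Ets2* were −0.15 and −0.10. *Il1r1*, an interleukin-1 receptor, measured 10.8, 9.74, and 10.8 CPM in the WT and 12.6, 13.1, and 14.6 CPM in the knockout cultures (log2 fold change 0.36, adjusted p = 0.266 from edgeR and 0.0152 from DESeq2).

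Among 24 proteins that MMPs are known to cut, all tested, edgeR called 0 (10 at an unadjusted p below 0.05, 2 higher and 8 lower, against 13.7% of all genes) and DESeq2 called 5, *Eln*, *Tnc*, *Col1a1*, *Vcan*, and *Fn1*, all lower, against 0.811% of all genes. *Vcan*, a chondroitin sulfate proteoglycan, measured 343, 449.8, and 370.4 CPM in the WT and 323, 309, and 309 CPM in the knockout cultures (log2 fold change −0.31, adjusted p = 0.273 from edgeR and 0.0419 from DESeq2), and its log2 fold change was −0.18 without WT replicate 2. That of *Fn1*, which encodes fibronectin, went from −0.31 to −0.18 on leaving out the same culture, and that of *Col1a1*, a fibrillar collagen chain, from −0.30 to −0.19. *Eln*, the elastin gene, measured 333, 317, and 277 CPM in the WT and 145, 200.1, and 99.5 CPM in the knockout cultures (log2 fold change −1.06, adjusted p = 0.235 from edgeR and 0.0213 from DESeq2). *Tnc*, which encodes tenascin-C, stood at −0.28 (adjusted p = 0.266 from edgeR and 0.00566 from DESeq2). The basement membrane genes *Col4a1* and *Col4a2*, which encode the type IV collagen that both gelatinases cut, had log2 fold changes of −0.09 each (adjusted p of 0.508 and 0.512 from edgeR). *Lama2*, the laminin chain of SC basement membrane, measured 331, 246, and 319 CPM in the WT and 339, 364, and 441 CPM in the knockout cultures (log2 fold change 0.35, adjusted p = 0.296 from edgeR). Its log2 fold change was 0.24 without WT replicate 2, and also 0.24 without *Plxnb1*-/- replicate 3. The median log2 fold change was −0.05 over the substrates, −0.07 over the genes that activate or restrain MMPs, −0.11 over the other MMPs, and 0.000519 over the factors that act on MMP genes.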

How the data were processed

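The 6 libraries (3 WT, 3 *Plxnb1*-/-) were grouped by their sample titles. Per the labels and the study's methods, reads were trimmed with Trim Galore 0.6.5, aligned to mm10 with Bowtie2 2.4.1, freed of duplicates with SAMtools 1.10, and counted on GENCODE exons with featureCounts. The deposited counts are whole numbers without normalization. The deposited FPKM values derive from them and were not used. Symbols, positions, and exon lengths came from GENCODE M21 on GRCm38, an older release than that of the counting, which matched 55141 of 55401 genes.

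The 22318 genes with 2 or more counts in 5 or more cultures were kept. Genotypes were compared with edgeR 4.0.16 in R 4.3.3 (TMM factors, genotype alone in the model, quasi-likelihood test, Benjamini-Hochberg adjustment over all kept genes), and with DESeq2 1.42.0 as an alternative. SEs and 95% intervals follow from the F statistic. The fit was tested on simulated data. Members and lists were chosen with earlier results of these data known. Of each other list, genes were named whose cultures did not overlap and whose unadjusted p was below 0.05, at most 4 in each direction. *Mmp11*, *Mmp8*, *Furin*, *Bsg*, *Cd44*, *Lrp1*, *Tfpi2*, *Jun*, *Col4a1*, *Col4a2*, *Fn1*, and *S100b* were added after their values were seen. Some marker genes are not reported here by name. Promoter windows came from RefSeq (GRCm38.p6). Plots were drawn in matplotlib 3.10.9 under Python 3.11.15.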

Additional observations from a re-analysis of the deposited data

How the results depend on the processing

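The number of genes called by edgeR was 8, and it was 335 with DESeq2, 296 with no filter on low counts, 5 with the replicate block, and 4 to 25 when single cultures were left out (5 without *Plxnb1*-/- replicate 1, 4 without *Plxnb1*-/- replicate 2 or 3, and 25 without WT replicate 2). Of the 10 members, edgeR called 0. DESeq2 and edgeR with no filter on low counts each called 1, *Mmp9* (adjusted p = 0.0339 from edgeR without the filter). Of the other 4 lists, edgeR called 0, DESeq2 12, edgeR with no filter 10, and edgeR with one culture left out between 0 and 1 (*Spock3*, without WT replicate 3). The count of members at an unadjusted p below 0.05 was 4, and 2 to 4 when single cultures were left out (2 without *Plxnb1*-/- replicate 3). When single cultures were left out, an alternative added after seeing the data, DESeq2 called between 51 (without *Plxnb1*-/- replicate 3) and 946 genes (without WT replicate 1), with 124 without *Plxnb1*-/- replicate 2, 162 without WT replicate 2, and 219 without WT replicate 3, and between 0 and 3 members, and its log2 fold change of *Mmp9* lay between −1.08 and −0.575. The log2 fold change of *Mmp2* lay between −0.009 and 0.162 when single cultures were left out, and that of *Timp2* between −0.004 and 0.035. The other 8 members had the same sign in all 14 fits. Replicate numbers do not pair the cultures by the labels, and deviations of same-numbered cultures correlated across genes at −0.0218, 0.00782, and 0.0653, and not every culture correlated best with its own number. The replicate block changed no call on a member. The cause of these differences was not tested. Of the members, *Mmp9*, at the lowest counts, had the widest interval, but widths did not follow the counts throughout. That of *Mmp2* (−0.10 to 0.28) was wider than that of *Mmp19* (−0.20 to 0.06), which had fewer counts.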
